A study of Mus musculus with 40 samples.

Results

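The 10 genes described here encode chemokines that attract monocytes and neutrophils: Ccl2, Ccl3, Ccl4, Ccl6, Ccl7, Ccl8, Ccl9, Ccl12, Cxcl1 and Cxcl2. They were taken by symbol from the tables of gene counts and of RPKM (read counts divided by gene length and by library depth), and all 10 were found among the 47729 symbols. RNA came from the inguinal number 4 mammary gland of Balb/cJ mice, cut from teat to lymph node with the node itself removed, so each value is that of a whole piece of fat pad with its ducts, stroma and vessels. Every mouse of every group, controls included, had lost its ovaries at 21 days of age and had then recovered for 7 days. Estrogen-treated mice received 200 nM estrogen in the drinking water with the AIN 93G based control diet and were killed at 60 h or 84 h, beside mice on the control diet alone at the same times. CLA-fed mice received that diet with 2.7% fat as CLA (conjugated linoleic acid, a group of isomers of linoleic acid) and were killed at 108 h or 132 h, beside controls killed at those times. Each of the 8 groups held 5 mice, 1 gland a mouse, and no group received both agents.

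Chemokines are small secreted proteins that bind receptors on white blood cells and set the direction in which those cells move. Ccl2, Ccl7 and Ccl12 are monocyte chemoattractant proteins that act on the receptor Ccr2, through which monocytes leave the bone marrow and enter tissue; Ccl8 belongs to the same family, and in the mouse it is best known as a ligand of Ccr8. Ccl3 and Ccl4 are macrophage inflammatory proteins that draw monocytes, macrophages and T cells, and Ccl3 acts on Ccr1. Ccl6 and Ccl9 are rodent chemokines of the Ccr1 group, made largely by macrophages and other myeloid cells. Cxcl1 and Cxcl2 act on Cxcr2 and draw neutrophils. In the mammary gland, macrophages gather around growing ducts and around dying fat cells, and Ccl2 is a known product of fat tissue as well as of macrophages.

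Total counts per library ran from 18183713 to 40026800 (n = 40). Values are in CPM, counts scaled to a common library size with TMM factors, unless RPKM is named. A gene is called, and the words rose and fell are used, where the Benjamini-Hochberg adjusted p was under 0.05. The p-values measure the spread between mice. Some libraries stood apart. Genes of skin and hair were high in 9 libraries, of which 0 were from CLA-fed mice, 3 were estrogen at 84 h, 1 was estrogen at 60 h, 2 were controls at 108 h and 3 were controls at 132 h. Among the chemokines, replicate 2 of the 60 h controls held 70.9 CPM of Ccl7, against 1.11 to 5.10 CPM in the other 4 controls. That library was also far above the others for Ccl2, Ccl12 and Ccl4. Replicate 5 of the 108 h controls held 17.9 CPM of Ccl7, against 2.55 to 5.28 CPM in the other 4. In a whole-gland sample, more cells of a type and more RNA per cell cannot be told apart.

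The 10 genes lie in 3 clusters (GRCm38 coordinates, GENCODE M21 annotation, whole genes). On chromosome 11, plus strand, are Ccl2 at chr11:82035571-82037453, Ccl7 at chr11:82045712-82047525, Ccl12 at chr11:82101845-82103400 and Ccl8 at chr11:82115185-82116799. Further along the same chromosome are Ccl9 at chr11:83572919-83578636, Ccl6 at chr11:83587882-83593087 and Ccl3 at chr11:83647844-83649355 on the minus strand, and Ccl4 at chr11:83662584-83664683 on the plus strand. Cxcl1 at chr5:90891241-90893115 and Cxcl2 at chr5:90903871-90905938 are neighbours on the plus strand of chromosome 5. An antisense or overlapping gene is annotated over Ccl2 (Gm17268) and over Ccl6 (E230016K23Rik). How the counting treated such reads is not given in the sources used here, so the levels of these 2 genes are less certain for that reason. Other levels are uncertain too. The length implied by counts and RPKM ran from 0.840 to 4.29 kb for Ccl4 (annotated exons 0.660 kb). For Ccl3 it ran from 0.974 to 2.41 kb (annotated exons 0.766 kb).

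The RefSeq promoters of 4 of these genes, picked after the motif search, are shown because they differ in a letter pattern that many inflammatory promoters carry, the kappaB motif bound by NF-kappaB. They come from the RefSeq table for GRCm38.p6, which matched 7 of the 10 genes; Ccl2, Ccl4 and Ccl7 had no entry. The 150 bases before each RefSeq start were searched on both strands for GGG-NN-TTTCC (kappaB), TGANTCA (AP-1), TTGCNNAA (C/EBP) and TTTC-NN-TTTC (ISRE), where hyphens only aid reading and N is any base, and on the gene's strand for TATAAA. The Cxcl1 window is chr5:90891095-90891240 (+), the Cxcl2 window chr5:90903749-90903870 (+), the Ccl9 window chr11:83578637-83578786 (-) and the Ccl6 window chr11:83593088-83593237 (-). The windows of Cxcl1 and Cxcl2 end at the last base before the GENCODE gene, short of the RefSeq start, with 146 and 122 bases. Each is printed 5′ to 3′ on the gene's strand, with capitals for kappaB matches and, in Ccl9, also for the TATAAA and AP-1 matches.
Cxcl1: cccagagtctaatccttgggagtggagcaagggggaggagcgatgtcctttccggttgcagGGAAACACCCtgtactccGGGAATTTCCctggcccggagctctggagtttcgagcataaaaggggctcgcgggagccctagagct
Cxcl2: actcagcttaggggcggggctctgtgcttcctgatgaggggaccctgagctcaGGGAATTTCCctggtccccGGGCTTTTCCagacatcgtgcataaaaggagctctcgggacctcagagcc
Ccl9: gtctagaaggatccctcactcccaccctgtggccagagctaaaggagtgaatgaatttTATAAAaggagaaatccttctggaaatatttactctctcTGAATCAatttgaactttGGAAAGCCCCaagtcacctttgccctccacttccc
Ccl6: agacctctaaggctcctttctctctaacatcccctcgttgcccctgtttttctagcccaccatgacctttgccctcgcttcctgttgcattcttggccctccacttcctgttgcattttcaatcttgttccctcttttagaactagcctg
Both neutrophil chemokine promoters held a pair of kappaB matches, which begin 89 and 71 bases before the start in Cxcl1 and 97 and 78 bases before it in Cxcl2. Ccl9 held 1 such match, 35 bases before the start on the opposite strand, with an AP-1 match 53 bases and a TATAAA match 92 bases before the start. Ccl6, whose gene adjoins Ccl9, held no match to any of the 5 patterns. The kappaB pattern was found in 3 of the 7 promoters searched, and 0.925% of the 32851 promoters in the table hold it. AP-1 was found in Ccl9 alone (4.24% of all promoters), TATAAA in Ccl12, Ccl8 and Ccl9 (4.84%), and C/EBP (5.46%) and ISRE (1.59%) in none of the 7. A match of letters is a description and not a measured binding site, and an absent match says only that these letters are not in the window.

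Per length of gene, Ccl6 and Ccl9 were the most abundant of the 10 chemokines in CLA-fed glands, in an order that depends on the length used. At 132 h Ccl6 averaged 199 ± 40.3 RPKM in CLA-fed glands and 23.7 ± 7.16 RPKM in controls (SD, n = 5 each, as for all means here). Ccl9 averaged 119 ± 23.9 RPKM in CLA-fed glands and 8.45 ± 2.14 RPKM in controls. Together they made up the larger part of the summed RPKM of the 10 genes with CLA, Ccl6 with 51.4% and Ccl9 with 30.7%, against 48.9% and 17.4% in controls. Ccl8 averaged 20.9 ± 1.87 RPKM in CLA-fed glands and 11.6 ± 2.55 RPKM in controls, and its share of the sum was 5.395% with CLA against 23.9% in controls. Ccl8 was therefore above Ccl9 in controls and below it in CLA-fed glands at that time. The deposited RPKM of Ccl6 implies a gene length of 0.345 kb (median), against 1.795 kb of annotated exons. In CPM per kb of annotated exons, a scale chosen after seeing the data, Ccl9 led in CLA-fed glands at 132 h with 143 ± 24.8, or 58.6% of the sum, and Ccl6 followed with 36.0 ± 7.28, or 14.8%. On that scale Ccl2 had 4.61 ± 1.27 in CLA-fed glands, or 1.89% of the sum, against 4.72% of the sum of RPKM. In the 132 h controls Ccl8 led on that scale with 40.8% of the sum, before Ccl9 with 29.8% and Ccl6 with 12.1%. The share of Ccl6 in controls thus depends on the length used as well.

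The other 7 were lower. With CLA at 132 h, Ccl2 averaged 18.3 ± 7.65 RPKM, against 0.554 ± 0.492 RPKM in controls. Ccl7 averaged 15.3 ± 4.46 RPKM in CLA-fed glands and 2.16 ± 1.07 RPKM in controls. The gaps from Ccl8 to Ccl2 and from Ccl2 to Ccl7, all of the monocyte chemoattractant family, were smaller than the SD of Ccl2. Cxcl1 followed with 5.25 ± 1.31 RPKM with CLA and 0.476 ± 0.316 RPKM in controls. Ccl3 averaged 3.29 ± 1.04 RPKM with CLA and 0.235 ± 0.190 RPKM in controls. Ccl12 was within an SD of Ccl3 and of Ccl4. Ccl12, Ccl4 and Cxcl2 closed the order with 3.20, 2.20 and 0.722 RPKM in CLA-fed glands, against 0.954, 0.208 and 0.162 RPKM in controls. At 108 h the order at the top was alike, with Ccl6 at 187 ± 46.7 RPKM and Ccl9 at 106 ± 25.9 RPKM in CLA-fed glands.

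**Figure D1:**
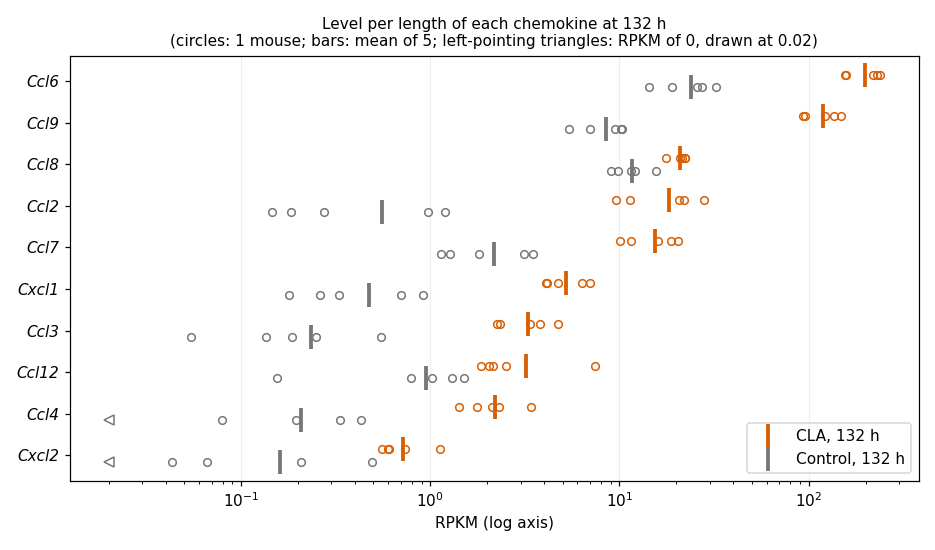
Level of each chemokine per length of gene at 132 h, in RPKM on a log axis; open circles are single glands (5 a group), bars are group means, and left-pointing triangles mark an RPKM of 0, drawn at 0.02. Ccl6 and Ccl9 are the rightmost genes in CLA-fed glands, at means of 199 and 119 RPKM, and the circles of the CLA-fed glands and of the controls do not overlap for any of the 10 genes.

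Over all 8 groups, the highest mean RPKM of each of the 10 genes was in a CLA-fed group. In CPM this held for 8; Ccl8 was highest with estrogen at 84 h, and Ccl12 in the 60 h controls, where replicate 2 alone held 12.3 CPM. Outside the CLA-fed groups Ccl9 stayed between 22.8 and 113 CPM in all 30 libraries, and Ccl6 between 5.06 and 26.2 CPM. Ccl3, Ccl4 and Cxcl2 were scarce there, with Ccl4 and Cxcl2 at 0 counts in some libraries. In the plot of CPM by gland, the CLA-fed points form a block above all other groups for Ccl9 and Ccl6.

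**Figure D2:**
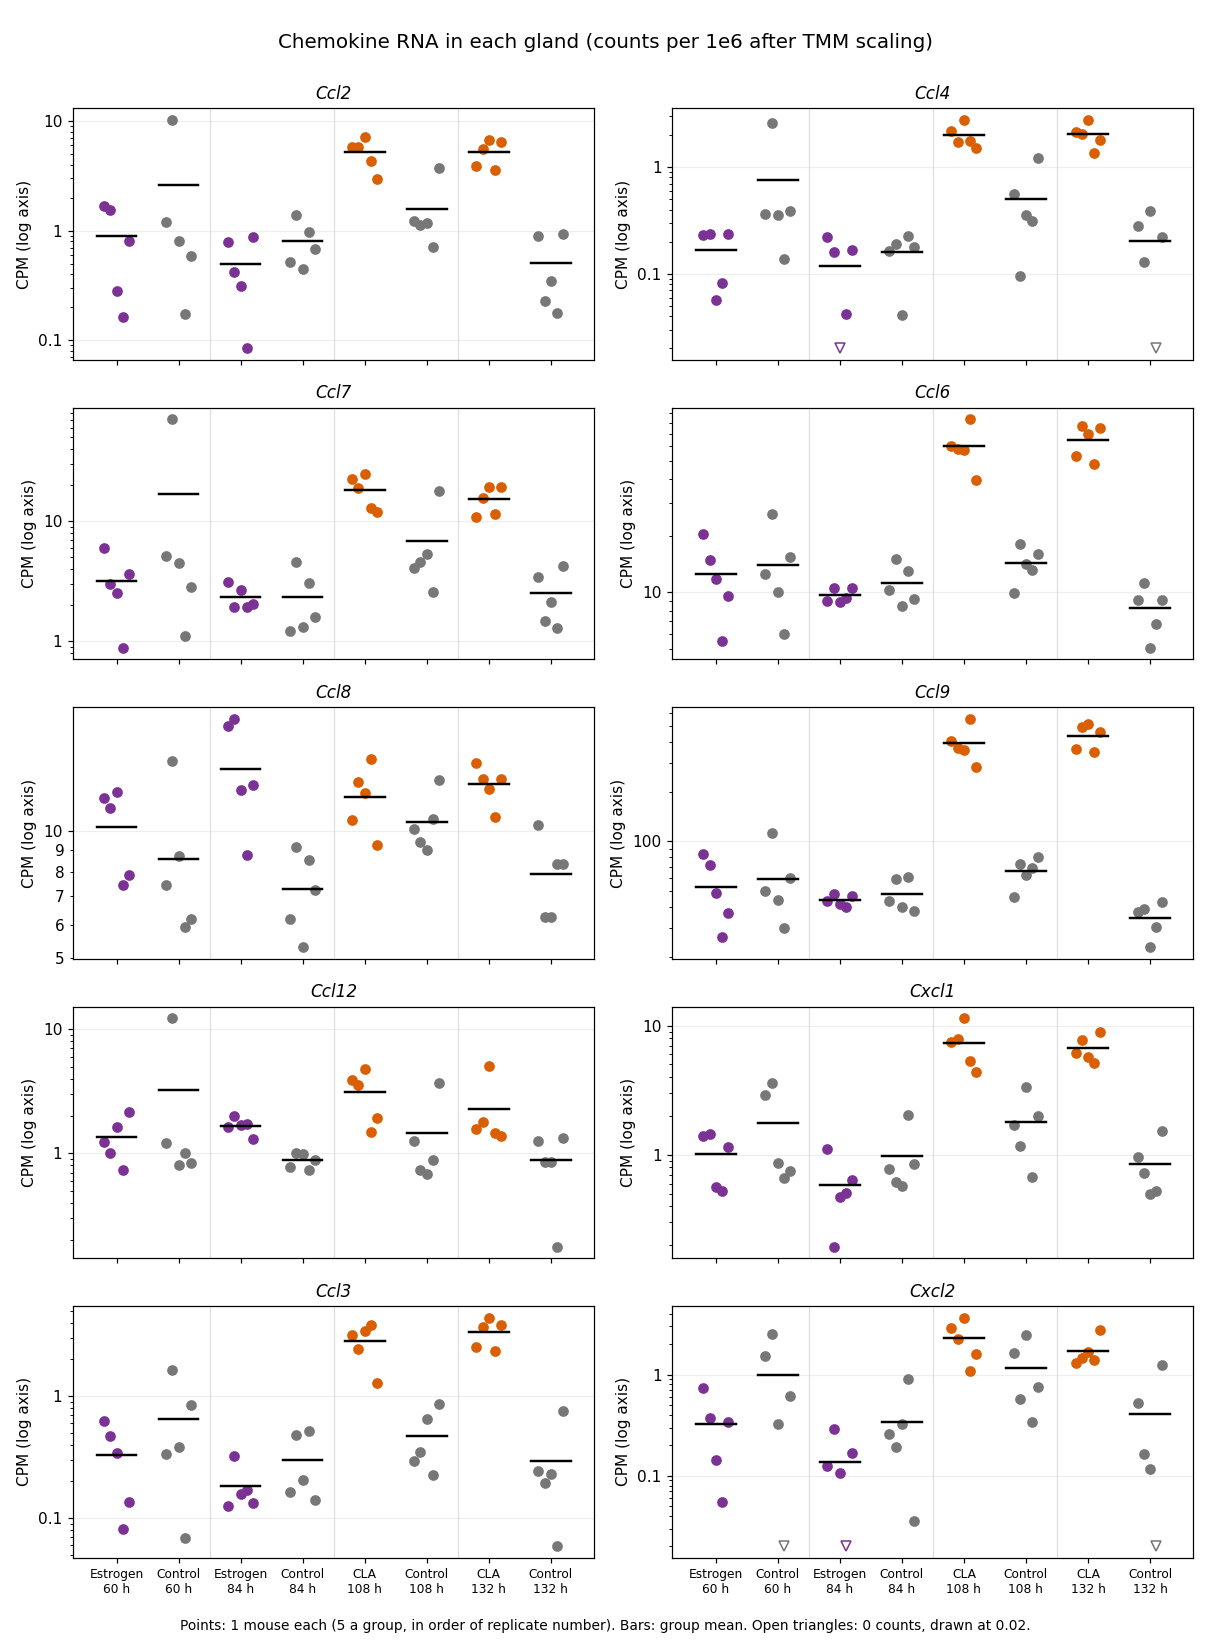
CPM of each chemokine in every gland (log axis), by treatment and time, with the treated group left of the control group of its time; points are single mice, bars are group means, and open triangles mark 0 counts, drawn at 0.02. Ccl9 lies between 284 and 556 CPM in the CLA-fed glands and at or below 113 CPM in every other gland, and the single high point of Ccl7 in the 60 h controls is 70.9 CPM.

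At 108 h, CLA was compared with the control diet. Of the 10 chemokines, 5 rose: Ccl3, Ccl4, Ccl6, Ccl9 and Cxcl1. Of 17248 genes tested, 24.9% were called higher and 23.0% lower, and 0 of the 10 chemokines were lower. The same 5 had CLA-fed and control values that did not overlap, with CLA higher, as did 18.1% of all genes. All 10 log2 fold changes were positive, with a median of 1.85 against -0.01 over all genes tested.

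Of the Ccr1 chemokines at 108 h, Ccl9 had 409, 368, 356, 556 and 284 CPM in CLA-fed glands, against 46.0, 73.1, 62.1, 68.5 and 80.0 CPM in controls. Every CLA-fed gland was above every control, and the log2 fold change was 2.58 ± 0.35 (SE; edgeR quasi-likelihood test, adjusted p = 9.03e-06). Ccl6 had 60.6, 58.0, 57.7, 83.9 and 39.8 CPM in CLA-fed glands, against 9.97, 18.1, 14.3, 13.1 and 15.98 CPM in controls. Its groups did not overlap either, and it rose by 2.07 ± 0.35 on the log2 scale (edgeR adjusted p = 0.000106). In both genes the 5th CLA-fed gland was the lowest and the 4th the highest.

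The macrophage inflammatory proteins Ccl3 and Ccl4 followed. Ccl3 had 3.19, 2.45, 3.44, 3.81 and 1.28 CPM in CLA-fed glands at 108 h, against 0.295, 0.348, 0.648, 0.226 and 0.858 CPM in controls. It was 6.01-fold higher, a log2 fold change of 2.59 ± 0.58 (edgeR adjusted p = 0.00109). Ccl4 had 2.18, 1.71, 2.75, 1.75 and 1.51 CPM in CLA-fed glands, against 0.560, 0.0950, 0.356, 0.311 and 1.22 CPM in controls, and rose by 1.98 ± 0.63 (edgeR adjusted p = 0.0141). The highest control and the lowest CLA-fed gland were close for both genes. Without the skin-high libraries the adjusted p of Ccl4 was 0.0762.

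The neutrophil chemokines differed from each other at 108 h in the outcome of the test. Cxcl1 had 7.52, 7.85, 11.4, 5.35 and 4.41 CPM in CLA-fed glands, against 1.71, 1.17, 3.34, 0.679 and 2.002 CPM in controls. Its groups did not overlap and it rose by 2.04 ± 0.49 on the log2 scale (edgeR adjusted p = 0.00228). Cxcl2 had 2.88, 2.27, 3.68, 1.08 and 1.61 CPM in CLA-fed glands, against 1.65, 0.570, 2.49, 0.339 and 0.751 CPM in controls. Its groups overlapped and its log2 fold change of 0.99 ± 0.71 missed the threshold (edgeR adjusted p = 0.271). The difference between the 2 genes was not tested.

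None of the 4 monocyte chemoattractant proteins passed at 108 h in the edgeR fit of all 60 h and 108 h libraries. Ccl2 had 5.86, 5.79, 7.20, 4.34 and 2.996 CPM in CLA-fed glands, against 1.24, 1.14, 1.17, 0.707 and 3.72 CPM in controls, a log2 fold change of 1.72 ± 0.82 (edgeR adjusted p = 0.0929). Ccl7 had 22.45, 19.0, 24.8, 12.97 and 11.95 CPM in CLA-fed glands, against 4.10, 4.59, 5.28, 2.55 and 17.9 CPM in controls, a log2 fold change of 1.41 ± 0.88 (edgeR adjusted p = 0.200). In both genes only the 5th control overlapped the CLA-fed glands. Without that control Ccl2 passed, with a log2 fold change of 2.29 (edgeR adjusted p = 0.0466), and Ccl7 was at 2.14 (edgeR adjusted p = 0.0752). Ccl12 had 3.91, 3.55, 4.83, 1.48 and 1.91 CPM in CLA-fed glands, against 1.27, 0.728, 0.680, 0.877 and 3.68 CPM in controls, with a log2 fold change of 1.13 ± 0.73 (edgeR adjusted p = 0.216), and 1.81 without the 5th control (edgeR adjusted p = 0.061). Ccl8 had 10.6, 13.04, 12.3, 14.8 and 9.25 CPM in CLA-fed glands, against 10.1, 9.43, 9.04, 10.7 and 13.2 CPM in controls. The Ccl8 difference of 0.19 had an interval of 2 SE from -0.24 to 0.62 on the log2 scale, so a rise of the size seen in Ccl9 lies outside it (edgeR adjusted p = 0.489).

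The spread of the 60 h controls entered these tests because all groups in a table were fitted together. Without replicate 2 of the 60 h controls, a library that takes no part in the difference itself, 8 chemokines were called at 108 h. The added ones were Ccl2 (edgeR adjusted p = 0.0174), Ccl7 (0.037) and Ccl12 (0.0404); this alternative was chosen after seeing the data. In a fit of the 2 groups at 108 h alone, 7 were called, with Ccl2 (edgeR adjusted p = 0.00603) and Ccl7 (0.0453) added. Ccl2 at 108 h also passed by limma on log2(RPKM + 0.1) (limma adjusted p = 0.0316) and on log2(RPKM + 1) (0.0111). In 7 of 10 alternative settings that left out no single replicate, Ccl2 stayed uncalled.

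At 132 h all 10 chemokines were higher with CLA and passed the test, where 27.0% of the 17180 genes tested were called higher and 29.0% lower. The CLA-fed and control values did not overlap for any of the 10, by narrow gaps for Ccl8, Ccl12 and Cxcl2, and 20.9% of all genes had CLA-fed values wholly above the controls. The median log2 fold change of the 10 was 2.96, against -0.03 over all genes. The fold changes were widely spread, from 1.61-fold for Ccl8 to 12.5-fold for Ccl9.

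Ccl9 had 364, 490.5, 515, 348 and 463 CPM in CLA-fed glands at 132 h, against 37.2, 39.1, 22.8, 30.3 and 42.7 CPM in controls. The lowest CLA-fed gland was several times the highest control, and the log2 fold change of 3.65 ± 0.18 had the smallest adjusted p of the 10 (edgeR, 5.15e-11). Ccl6 had 53.1, 76.8, 69.6, 48.5 and 75.4 CPM in CLA-fed glands, against 9.09, 11.2, 5.06, 6.76 and 9.08 CPM in controls, and rose by 2.95 ± 0.20 (edgeR adjusted p = 9.7e-10). With Ccl8, these 2 genes had the smallest standard errors of the 10.

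Ccl3 had 2.51, 3.67, 4.41, 2.33 and 3.79 CPM in CLA-fed glands at 132 h, against 0.242, 0.196, 0.232, 0.0588 and 0.749 CPM in controls. It rose by 3.45 ± 0.44 on the log2 scale (edgeR adjusted p = 1.74e-06), and its highest control was the 5th. Ccl4 had 2.15, 2.06, 2.79, 1.37 and 1.79 CPM in CLA-fed glands, against 0.283, 0.130, 0.386, 0 and 0.220 CPM in controls. It rose by 3.22 ± 0.47 (edgeR adjusted p = 1.06e-05), with 0 counts in 1 control library and no more than 10 in any. Both encode macrophage inflammatory proteins.

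For Cxcl1, CLA-fed glands at 132 h held 6.15, 7.79, 5.73, 5.15 and 8.88 CPM, against 0.970, 0.717, 0.502, 0.529 and 1.54 CPM in controls. It rose by 2.96 ± 0.41 on the log2 scale (edgeR adjusted p = 4.8e-06). For Cxcl2, CLA-fed glands held 1.30, 1.46, 1.70, 1.40 and 2.77 CPM, against 0.525, 0.163, 0.116, 0 and 1.23 CPM in controls. The gap between its groups was narrow, with 1.30 CPM in the lowest CLA-fed gland against 1.23 CPM in the highest control, and it rose by 2.05 ± 0.68 (edgeR adjusted p = 0.0154).

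In the monocyte chemoattractant family, Ccl2 had 3.86, 5.57, 6.70, 3.61 and 6.50 CPM in CLA-fed glands at 132 h, against 0.889, 0.228, 0.347, 0.176 and 0.925 CPM in controls. That is 10.0-fold higher, a log2 fold change of 3.32 ± 0.49 (edgeR adjusted p = 1.19e-05). Ccl7 had 10.9, 15.5, 19.2, 11.4 and 19.4 CPM in CLA-fed glands, against 3.43, 1.47, 2.12, 1.29 and 4.23 CPM in controls, and rose by 2.59 ± 0.37 (edgeR adjusted p = 1.07e-05). Their neighbours Ccl12 and Ccl8 moved less. Ccl12 had 1.57, 1.80, 5.09, 1.46 and 1.39 CPM in CLA-fed glands, against 1.25, 0.848, 0.849, 0.176 and 1.32 CPM in controls. The log2 fold change of Ccl12 was 1.30 ± 0.38 (edgeR adjusted p = 0.00679), with the 3rd CLA-fed gland well above the other 4. Ccl8 had 14.5, 13.3, 12.6, 10.8 and 13.3 CPM in CLA-fed glands, against 10.3, 6.26, 6.25, 8.35 and 8.37 CPM in controls, a log2 fold change of 0.69 ± 0.19 (edgeR adjusted p = 0.00457).

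Without the 9 skin-high libraries, which leaves 2 of the 5 controls at 132 h, 7 of the 10 chemokines were called. The share of all genes called in that fit is not reported here. The calls lost were Ccl8 (log2 fold change 0.61, edgeR adjusted p = 0.061), Ccl12 (1.51, 0.0673) and Cxcl2 (1.39, 0.251). Ccl9 kept a log2 fold change of 3.56 (edgeR adjusted p = 1.32e-06) and Ccl6 one of 3.01 (4.04e-06). The Ccl2 fold change differed between the 2 kinds of table, with a log2 ratio of mean RPKM of 5.04 at 132 h against 3.32 in the counts.

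**Figure D3:**
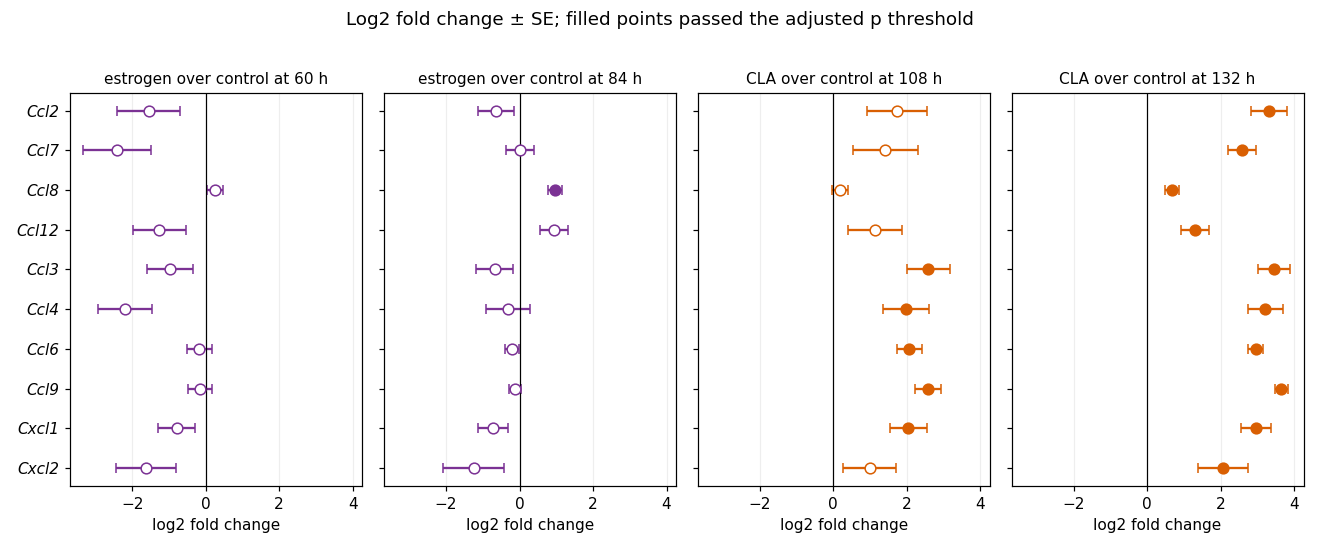
Log2 fold change ± SE of each chemokine, treated over control, in the 4 treatment comparisons; filled points passed the adjusted p threshold of 0.05. At 132 h all 10 points for CLA are filled, from 0.69 (Ccl8) to 3.65 (Ccl9), and with estrogen the 84 h point of Ccl8 is the only filled one.

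The animal numbers in the labels fall into 4 runs, and CLA-fed mice and controls could be compared inside them. At 108 h the difference in mean log2 CPM, CLA minus control, was 0.29 (Ccl8) to 3.16 (Ccl3) in run 1, with 3 CLA-fed mice against 2 controls. In run 3, with 2 against 3 mice, it was 0.11 (Ccl8) to 2.51 (Ccl9). At 132 h it was 0.74 (Ccl8) to 3.88 (Ccl3) in run 1 (3 against 2), 0.58 (Ccl8) to 4.89 (Cxcl2) in run 2 (1 against 2) and 0.07 (Ccl12) to 3.44 (Ccl9) in run 3 (1 against 1). All 10 genes were thus positive inside every run. Estrogen-treated mice stood alone in run 4, so for estrogen the run and the treatment cannot be told apart.

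The CLA effect at 132 h was set against that at 108 h in a joint fit to all 40 libraries. The difference was positive for all 10 chemokines, with a median of 1.01 on the log2 scale, but 0 of the 10 passed. Over all 17852 genes the share called in either direction was 0%, that is 0 genes by edgeR, with 2216 genes and 2 chemokines at an unadjusted p under 0.05. DESeq2 called 124 genes and 0 chemokines. The 2 chemokines were Ccl9, with a difference of 1.08 ± 0.38 (edgeR adjusted p = 0.230), and Ccl6, with 0.89 ± 0.40 (edgeR adjusted p = 0.353). Ccl9 in CLA-fed glands spanned 348 to 515 CPM at 132 h, within its span of 284 to 556 CPM at 108 h, while the controls were lower at 132 h (22.8 to 42.7 CPM) than at 108 h (46.0 to 80.0 CPM). That fewer chemokines passed at 108 h is therefore not shown to be a smaller effect.

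Along chromosome 11 the response was uneven. In the first cluster the log2 fold changes at 132 h were 3.32 for Ccl2 and 2.59 for Ccl7, then 0.24 for Ccl11, which lies next to Ccl7, attracts eosinophils and did not pass (edgeR adjusted p = 0.0731), then 1.30 for Ccl12 and 0.69 for Ccl8. Ccl1, at the end of that cluster, had too few counts to be tested. After a gap of 1220.1 kb, the second cluster opens with Ccl5, a T cell and monocyte chemokine, which rose by 0.87 (edgeR adjusted p = 0.0433). The remaining 4, Ccl9, Ccl6, Ccl3 and Ccl4, rose by 2.95 to 3.65. Ccl5 and Ccl11 were picked as neighbours, not for their values.

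**Figure D4:**
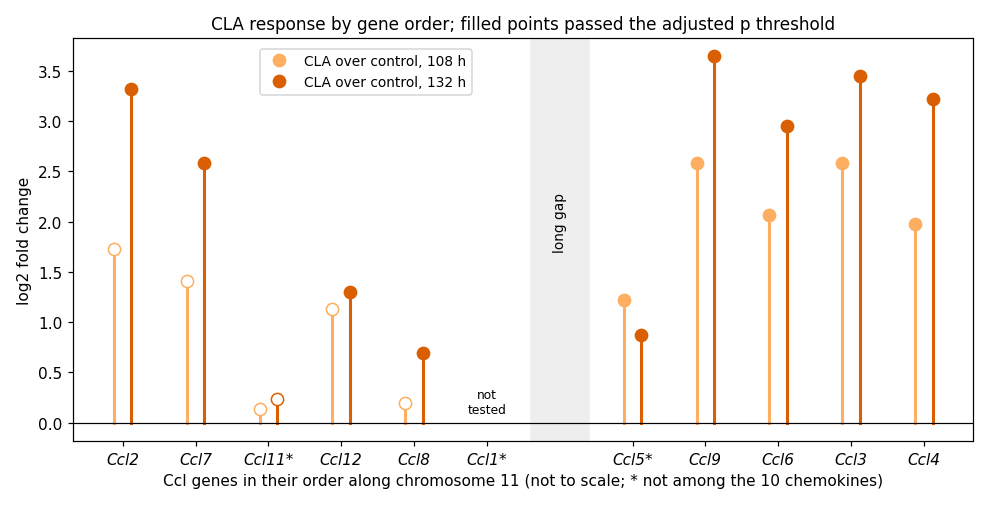
Log2 fold change of CLA over control at 108 h and 132 h for the Ccl genes in their order along chromosome 11, not to scale; filled points passed the adjusted p threshold, asterisks mark genes outside the 10 chemokines, and the grey band is the long gap. Ccl11, between Ccl7 and Ccl12, is at 0.13 and 0.24, while the 4 genes at the right end are at 1.98 or more at both times.

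With estrogen at 60 h, 0 of the 10 chemokines were called by edgeR, where 4.07% of 17248 genes were higher and 2.42% lower. At an unadjusted p under 0.05 there were 2, Ccl7 and Ccl4, and DESeq2 called both lower. Ccl7 had 5.94, 2.99, 2.498, 0.877 and 3.63 CPM in estrogen-treated glands, against 5.10, 70.9, 4.47, 1.11 and 2.85 CPM in controls. Its log2 fold change was -2.41 ± 0.92 (edgeR adjusted p = 0.125), and -0.09 without replicate 2 of the controls. Ccl4 had 0.232, 0.235, 0.0568, 0.0822 and 0.238 CPM in estrogen-treated glands, against 0.364, 2.58, 0.355, 0.138 and 0.389 CPM in controls, with a log2 fold change of -2.19 ± 0.73 (edgeR adjusted p = 0.0768). Without that replicate the Ccl4 value was -0.91. The median of the 10 was -1.12 with it, and Ccl2, Ccl12, Ccl6 and Ccl9 turned to 0.35, 0.48, 0.18 and 0.21 without it.

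With estrogen at 84 h, 1 of the 10, Ccl8, rose, where 3.45% of 17180 genes were called higher and 1.97% lower. Ccl8 had 17.7, 18.4, 12.5, 8.78 and 12.8 CPM in estrogen-treated glands, against 6.19, 9.15, 5.31, 8.54 and 7.25 CPM in controls. Only the 4th estrogen-treated gland lay within the range of the controls, and the log2 fold change was 0.95 ± 0.19 (edgeR adjusted p = 0.00593). Without the skin-high libraries, 3 of which are in this estrogen group, it was 0.87 with an edgeR adjusted p of 0.0782. Ccl12 had 1.64, 2.01, 1.69, 1.73 and 1.31 CPM in estrogen-treated glands, against 0.782, 1.0005, 0.979, 0.741 and 0.888 CPM in controls. It was the 1 chemokine whose groups did not overlap, as was so with estrogen higher for 4.79% of all genes, yet its log2 fold change of 0.94 ± 0.38 missed the threshold (edgeR adjusted p = 0.157). In a fit of the 2 groups alone it passed (edgeR adjusted p = 0.00878).

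The other 8 had log2 fold changes of -1.25 (Cxcl2) to 0.01 (Ccl7) at 84 h. Ccl9, so high with CLA, had 43.7, 48.3, 41.5, 40.3 and 46.8 CPM in estrogen-treated glands, against 43.4, 59.0, 40.0, 60.9 and 37.7 CPM in controls. Between 60 h and 84 h, 0 of the 10 estrogen effects differed by edgeR (0 by DESeq2), with 3 at an unadjusted p under 0.05. Of all 17852 genes, 0.00560%, which is 1 gene, was called in that test. The 3 were Ccl7 (84 h minus 60 h, 2.42), Ccl12 (2.19) and Ccl8 (0.70), and without replicate 2 of the 60 h controls they were 0.10, 0.45 and 0.42.

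The effects of CLA and of estrogen were set against each other within each table, where each has its own controls but not the same time on treatment, so agent and time cannot be told apart. The CLA effect at 108 h exceeded the estrogen effect at 60 h for 7 of 10 chemokines, and 17.2% of genes were called in that direction. These were Ccl4 (difference 4.16), Ccl7 (3.82), Ccl3 (3.56), Ccl2 (3.28), Cxcl1 (2.83), Ccl9 (2.74) and Ccl6 (2.24), with edgeR adjusted p values of 0.000357 (Ccl9) to 0.0419 (Ccl2). Without replicate 2 of the 60 h controls 5 were called; Ccl2 (1.37) and Ccl7 (1.51) were lost. Ccl2 was also lost with most other single mice left out (edgeR adjusted p of 0.0552 to 0.0727), and Ccl7 without replicate 4 of the 108 h controls (0.0508) or of the 60 h estrogen group (0.0523). With no filter on low counts both were lost (edgeR adjusted p = 0.0808 for Ccl2 and 0.0542 for Ccl7), as they were by limma on log2(RPKM + 0.1) (0.073 and 0.0929). By limma on log2(RPKM + 1) Ccl7 was lost (0.0825) and Ccl2 was not (0.0319). The CLA effect at 132 h exceeded the estrogen effect at 84 h for 8 of 10, against 19.1% of genes. The largest of these was Ccl3 (4.13), followed by Ccl2 (3.95), Ccl9 (3.77 ± 0.24, edgeR adjusted p = 8.12e-09), Cxcl1 (3.69), Ccl4 (3.53), Cxcl2 (3.30), Ccl6 (3.16) and Ccl7 (2.57). Cxcl2 was lost without replicate 4 of the 84 h controls (2.52, edgeR adjusted p = 0.0752).

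Ccl8 and Ccl12 did not pass in either of these tests with all libraries. For Ccl8 the CLA effect minus the estrogen effect was -0.06 at the earlier pair of times, with an interval of 2 SE from -0.67 to 0.55 (edgeR adjusted p = 0.906). At the later pair it was -0.27, with an interval from -0.80 to 0.27 (edgeR adjusted p = 0.467). Ccl12 differed by 2.39 at the earlier pair, with an interval from 0.32 to 4.45 (edgeR adjusted p = 0.0856), and it passed without replicate 5 of the 108 h controls (3.07, edgeR adjusted p = 0.0314). It differed by 0.36 at the later pair, with an interval from -0.71 to 1.44 (edgeR adjusted p = 0.628), so a difference of more than 1.44 in favour of CLA lies outside it. Misses of the threshold do not show that the 2 agents act alike on these 2 genes.

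Across the 4 control groups, 2 of 10 chemokines differed between times by edgeR, Ccl7 (adjusted p = 0.0097) and Ccl4 (adjusted p = 0.0367), beside 13.4% of 17852 genes. The runs of animal numbers were uneven over the control times, with runs 1 and 2 at 60 h and runs 1 and 3 at 108 h. Skin-high libraries were among the controls at 108 h and 132 h only. Time and run thus cannot be fully told apart, and the part of the run was not tested. Relative to 60 h, Ccl7 was at -2.86 on the log2 scale at 84 h, -1.30 at 108 h and -2.74 at 132 h. Ccl4 was at -2.21, -0.60 and -1.83 at those times. These values rest on replicate 2 of the 60 h controls. Without it Ccl7 was at -0.54, 1.01 and -0.42 (edgeR adjusted p = 0.0495) and Ccl4 at -0.94, 0.67 and -0.55 (edgeR adjusted p = 0.107), so both turned positive at 108 h. Ccl4 was then no longer called and Ccl9 was (edgeR adjusted p = 0.042). A fit of the control groups alone called 0 of the 10. At an unadjusted p under 0.05 there were 6.

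Receptors of these chemokines were read in the same glands. Ccr8 and Cxcr1 had too few counts to be tested. Of Ccr1, Ccr2, Ccr3 and Cxcr2, 2 rose with CLA at 108 h and 3 at 132 h, where 24.9% and 27.0% of all genes were called higher. Ccr2, the monocyte receptor of Ccl2, Ccl7 and Ccl12, averaged 84.6 CPM in CLA-fed glands and 30.5 CPM in controls at 108 h, and 67.3 CPM in CLA-fed glands and 16.8 CPM in controls at 132 h. The log2 fold changes of Ccr2 were 1.47 ± 0.29 and then 1.99 ± 0.23 (edgeR adjusted p = 0.000449 and 1.09e-06).

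Ccr1, on which Ccl3, Ccl6 and Ccl9 act, had a log2 fold change of 1.31 ± 0.63 at 108 h, which missed the threshold, and rose by 2.12 ± 0.43 at 132 h (edgeR adjusted p = 0.0996 and 0.000378). Ccr3, an eosinophil receptor that Ccl7 also binds, rose by 1.52 ± 0.39 and 1.89 ± 0.39 (edgeR adjusted p = 0.00304 and 0.000426). Cxcr2, the neutrophil receptor of Cxcl1 and Cxcl2, averaged 0.456 CPM with CLA and 0.301 CPM in controls at 132 h. It did not pass at 108 h (0.17 ± 0.70) or at 132 h (0.52 ± 0.37; edgeR adjusted p = 0.864 and 0.240). With estrogen 0 of these 4 passed at 60 h or 84 h by edgeR. At an unadjusted p under 0.05 there were 0 at 60 h and 2 at 84 h, Ccr3 (-1.11, edgeR adjusted p = 0.154) and Cxcr2 (-1.08, edgeR adjusted p = 0.107).

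Markers of the cells that these chemokines attract or that make them were counted beside them. Macrophage markers were higher with CLA for 8 of 10 at 108 h and 9 of 10 at 132 h, and 0 were lower. Of all genes, 24.9% and 27.0% were called higher at those times. Cd68, a lysosomal protein of macrophages, rose by 2.85 ± 0.21 and 3.64 ± 0.18 (edgeR adjusted p = 7.34e-09 and 5.15e-11), and Cd84 by 2.62 ± 0.36 and 3.53 ± 0.32. The summed RPKM of the 10 macrophage markers was 1163 to 1983 in CLA-fed glands against 261.5 to 767.6 in controls at 108 h, and 1160 to 2552 in CLA-fed glands against 157.4 to 403.6 in controls at 132 h. None of these markers was at 0 throughout a group. The chemokines and the macrophage markers thus moved together, and the part of the number of macrophages in the chemokine values was not tested.

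Monocyte markers were called higher for 2 of 8 at 108 h (Ccr2 and F13a1) and 4 of 7 at 132 h (also Vcan and Ms4a4c), with 0 lower. Among all genes, 24.9% and 27.0% were called higher at those times, and 23.0% and 29.0% lower. The log2 fold changes of the monocyte markers were positive for 5 of 8 at 108 h (median 0.17) and 5 of 7 at 132 h (median 0.74). Their summed RPKM was 60.0 to 72.4 in CLA-fed glands against 31.7 to 58.0 in controls at 108 h, and 50.8 to 69.0 in CLA-fed glands against 24.6 to 35.2 in controls at 132 h. Few neutrophil markers were called. Their log2 fold changes were positive for 6 of 8 at 108 h (median 0.39) and 6 of 7 at 132 h (median 0.52). At 108 h 0 of 8 rose and Elane, a neutrophil granule protease, fell by 1.40. At 132 h Mmp9 rose by 0.70 and Elane fell by 2.33 among 7 tested. The summed RPKM of the 12 neutrophil genes was 9.63 to 13.9 in CLA-fed glands against 6.13 to 15.6 in controls at 108 h, and 6.84 to 14.0 in CLA-fed glands against 3.96 to 7.60 in controls at 132 h. Ly6g, a defining neutrophil marker, was at 0 in all 132 h controls and in all 60 h estrogen-treated glands.

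Marker genes of other cell types were also called with CLA, and the part of these cells in the chemokine values was not tested. With CLA, 24.9% of all genes were called higher and 23.0% lower at 108 h. At 132 h 27.0% were called higher and 29.0% lower. Adipocyte genes fell for 6 of 7 at both times, though they stayed abundant in every gland (summed RPKM 6579 to 13240). Endothelial genes fell for 5 of 6 at 108 h and 4 of 6 at 132 h. Of 7 fibroblast genes, 2 were higher and 1 lower at 108 h, and 6 were higher at 132 h. Basal epithelial genes fell for 3 and 4 of 6, and skin and hair genes for 8 of 10 and 11 of 11, in step with the skin-high control libraries. Luminal genes rose for 0 and 1 of 8. Lymphocyte genes rose for 1 of 10 at 108 h and fell for 3 of 9 at 132 h. Of 7 mast cell and eosinophil genes, 3 were lower at 108 h, while at 132 h 1 was higher and 1 lower. With estrogen, luminal genes rose for 7 and 5 of 8 and mast cell and eosinophil genes fell for 1 and 4 of 7. Over all genes, 4.07% and 3.45% were called higher with estrogen at 60 h and 84 h, and 2.42% and 1.97% lower. Of basal genes 1 of 6 rose at each time, of endothelial genes 1 of 6 fell at each time, and of skin genes 1 of 11 rose at 84 h. No macrophage, monocyte, neutrophil, lymphocyte, adipocyte or fibroblast marker passed by edgeR with estrogen.

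Of 17 other chemokines tested, 4 rose with CLA (Ccl5, Cxcl16, Pf4 and Ppbp) and 0 fell at 108 h, with a median of 0.02. At 132 h the list had 7 called higher and 2 lower, with a median of 0.61. Over all genes, 24.9% and 27.0% were called higher with CLA at those times, and 23.0% and 29.0% lower. Cxcl16, a membrane-bound chemokine of macrophages, rose by 1.01 ± 0.14 and 1.37 ± 0.17. Pf4, a platelet and macrophage chemokine, rose by 1.28 ± 0.22 and 1.55 ± 0.12 (edgeR adjusted p = 0.000111 and 1.79e-09). Cxcl9, a T cell chemokine induced by interferon gamma, fell by 0.95 at 132 h (edgeR adjusted p = 5.38e-05), with 8.58 CPM in CLA-fed glands and 16.4 CPM in controls. With estrogen 1 of 17 was higher at each time (Cxcl14, then Cxcl15), beside 4.07% and 3.45% of all genes. Cxcl9 was lower with estrogen at 60 h, as were 2.42% of all genes. Whether these 17 differ as a list from the 10 was not tested.

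Most atypical chemokine receptors bind chemokines without drawing cells. Of the 4 tested, Ccrl2 rose by 0.73 ± 0.22 at 108 h and 1.58 ± 0.25 at 132 h (edgeR adjusted p = 0.0108 and 2.53e-05). Ackr3 fell by 0.32 at 108 h, and Ackr1 and Ackr2 rose by 0.33 and 0.50 at 132 h. With estrogen Ackr3 rose at 60 h and Ackr2 fell at 84 h. Of 8 other receptors of white blood cells, 3 were called at 108 h (2 higher, 1 lower) and 4 at 132 h (3 higher, 1 lower). Of all genes, 24.9% and 27.0% were called higher with CLA at those times, and 23.0% and 29.0% lower. Cxcr4, the receptor of Cxcl12, rose by 0.90 ± 0.24 and 1.32 ± 0.24. Among 15 genes of NF-kappaB feedback and inflammatory cytokines, 7 were called higher at 108 h and 10 at 132 h, 0 lower, with medians of 0.38 and 0.51. Nfkbid, a nuclear regulator of NF-kappaB, rose by 1.93 ± 0.23 and 2.04 ± 0.30, and Nfkb2, an NF-kappaB subunit, by 0.66 ± 0.09 and 0.70 ± 0.09. With estrogen 1 of the 15 fell at each time, Il1b at 60 h and Ptgs2 at 84 h, beside 2.42% and 1.97% of all genes.

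Each chemokine was also matched to the genes whose profile over the 8 group means of log2 CPM, centred on the gene's own mean, was nearest by root mean square difference among 15364 genes. Ccl6 was nearest to Dock2 (0.0874), Spi1 (0.0971) and Irf5 (0.106), and Ccl9 to Ly9 (0.101), Lcp1 (0.109) and Ctss (0.132). For Ccl3 the nearest were Slc15a3, Cd84 and Mpeg1, at 0.135 to 0.162. Among the 3 nearest genes of Ccl2 were Cxcl1 (0.198) and Clec7a (0.202), and among those of Cxcl1 were Igsf6 (0.188) and Clec7a (0.192). Ccl4 had Ccl3 (0.341) and Cxcl1 (0.370) among its own, and Cxcl2 had Ccl2 first, at 0.365. Ccl7 was nearest to Msr1 (0.204), then Klra3. Ccl8 and Ccl12 had other neighbours: Adgrb1 (0.0924) first, with Aplp1 (0.113), for Ccl8, and Ocstamp (0.177), Hsph1 and Mcmdc2 for Ccl12. These are distances over 8 groups whose libraries are shared by all genes, and with the 4 control groups left out 8 of the 30 pairs were found again.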

How the data were processed

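Poly(A) RNA of 40 glands was sequenced from strand-specific libraries, per the labels' protocols. The authors deposited counts per gene in a pair of tables, split by time (60 h with 108 h; 84 h with 132 h), and RPKM in another such pair. Per the submitters' processing notes the build was GRCm38; the sources used here name no aligner, counter, gene model or strand setting. For several genes the deposited counts and RPKM imply a length that differs from the annotated exons or varies between libraries; for Ccl2 the implied length ran from 0.269 to 1.49 kb, and for Ccl6 its median was 0.345 kb against 1.795 kb of annotated exons. Counts were used for the edgeR and DESeq2 tests. RPKM were used as deposited, without TMM factors, for levels of genes and sums of markers and for the limma fits.

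Tests used edgeR 4.0.16 (R 4.3.3; quasi-likelihood, robust, TMM, filterByExpr with minimum count 10 and minimum total 15), with Benjamini-Hochberg adjustment over all genes tested. Treatment comparisons were fitted on the 20 libraries of a table, and differences over time on all 40. An SE is the size of the log2 fold change over the square root of F. Other settings tried were DESeq2 1.42.0, scaling by RLE or by the upper quartile, other count filters, limma 3.58.1 on log2(RPKM + 0.1) and log2(RPKM + 1), fits without skin-high libraries, of the compared groups alone or with runs of animal numbers in the model (a gap above 15 opens a run), levels per annotated exon length, and each replicate left out. Scripts were tested on simulated data. No library was a copy of another of its own group in a chi-square comparison of counts. Pairs from different groups were not compared. Labels give 5 biological replicates a group.

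The 10 chemokines and the 17 gene lists (166 genes, the 10 included) were chosen with earlier results of these data known. Named were all 10 chemokines, Ccr1, Ccr2 and Cxcr2, genes among the 3 with the smallest p of a list with CLA, chromosome 11 neighbours, and genes among the 3 nearest by profile, except some not reported here; other names in counts of few were added after seeing values.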

Additional observations from a re-analysis of the deposited data

Results flagged for a closer look

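By Dixon's test at the 95% level, 12 of the 80 sets of 5 values held a single gland far from the other 4. In each of the 12 that gland was the highest. For normally distributed values chance gives about 1 in 20 groups, and the 10 genes of a gland are not independent. CPM of scarce genes need not be distributed so, and the rate of 1 in 20 may not hold here. The causes were not tested. Of the 12, 4 are replicate 2 of the 60 h controls, with Ccl7 at 70.85 CPM (1.11 to 5.10 in the other 4), Ccl2 at 10.33 CPM (0.173 to 1.21), Ccl12 at 12.32 CPM (0.799 to 1.21) and Ccl4 at 2.583 CPM (0.138 to 0.389). Another 3 are replicate 5 of the 108 h controls, with Ccl2 at 3.718 CPM (0.707 to 1.24 in the others), Ccl7 at 17.91 CPM (2.55 to 5.28) and Ccl12 at 3.682 CPM (0.680 to 1.27). Both glands stood apart in the same monocyte chemoattractant genes. In CLA-fed glands at 132 h, Ccl12 was 5.085 CPM in replicate 3 (1.39 to 1.80 in the others) and Cxcl2 2.775 CPM in replicate 5 (1.30 to 1.70). Ccl3 was 0.3234 CPM in replicate 2 with estrogen at 84 h (0.126 to 0.169 in the others) and 0.7492 CPM in replicate 5 of the 132 h controls (0.0588 to 0.242). Cxcl1 was 2.03 CPM in replicate 4 of the 84 h controls (0.571 to 0.853 in the others).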

How the results depend on the processing

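No paired analysis was possible because the labels carry animal numbers and no replicate numbers shared between groups. With CLA at 132 h, 10 chemokines were called in every fit run, except 7 without the skin-high libraries. Fits with a replicate left out called 8984 to 9557 genes there. With CLA at 108 h it was 4 to 7, and 5 to 6 with a compared replicate left out, beside 7637 to 8367 genes. Without replicate 2 of the 60 h controls, an alternative chosen after seeing the data, 8 were called. With estrogen at 60 h DESeq2 called 2, and leaving out a replicate always gave 0, beside 316 to 1210 genes. With estrogen at 84 h the count was 0 without skin-high libraries, 2 in a fit of the compared groups and 1 with any replicate left out. Those fits with a replicate left out called 443 to 1152 genes. Across the control groups, 2 called became 1 with no count filter, 0 by limma with either pseudocount, 0 without skin-high libraries, 1 by DESeq2 (Ccl9), 0 in a fit of controls alone, and 1 to 5 with a replicate left out (1 without 84 h replicate 1, 2, 3 or 5 or 132 h replicate 2, 5 and 4 without 60 h replicate 4 and 5). Across the control groups, fits with a replicate left out called 1703 to 2661 genes. CLA minus estrogen gave 5 to 8 at the earlier and 7 to 8 at the later pair of times with a replicate left out. Those fits called 5020 to 5918 and 6004 to 6768 genes. Without skin-high libraries CLA minus estrogen gave 5 and 6. The differences between times gave 0. The shares of all genes called in the remaining fits are not reported here. Signs turned in 21 of the values tallied, all with a replicate left out. Of the difference between the estrogen effects at 84 h and 60 h, only Ccl7, Ccl8 and Ccl12 entered that tally. Over all replicates left out, the values with estrogen at 84 h ran from -0.14 to 0.39 for Ccl7; at 60 h from -1.91 to 0.35 for Ccl2, -1.51 to 0.48 for Ccl12, -0.43 to 0.18 for Ccl6 and -0.38 to 0.21 for Ccl9; CLA at 108 h minus estrogen at 60 h from -0.33 to 0.051 for Ccl8; and for Ccl12 CLA at 132 h minus estrogen at 84 h from -0.17 to 0.53 and minus CLA at 108 h from -0.50 to 0.42. The cause was not tested. Low counts, down to 0 for Ccl4 and Cxcl2, limit the precision of Ccl3, Ccl4 and Cxcl2 outside the CLA-fed groups.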
